A study of Mus musculus with 27 samples.

Results

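Adult C57BL/6N mice that met a high-fat diet for the first time were sampled after 4 weeks on it, and RNA was read from their epididymal white adipose tissue, a visceral fat depot attached to the epididymis. The gain4 group was given this diet (60% of kcal as fat) only in the last 4 of 16 weeks, and the control16 group had normal diet for all 16 weeks. Both groups were 21 weeks old. There were 3 libraries in each group, 6 of the 27 libraries of a series on weight gain, loss and regain, and they were taken by their labelled diet and time. The only other first exposure with controls of its own was gain8, mice aged 13 weeks that had the same diet for 8 weeks, against control8, mice of the same age on normal diet, again with 3 libraries each. No transgene or drug is named in the labels, and each library was made from a piece of tissue of 60 to 70 mg. The labels number the replicates without saying that each came from a separate animal, so the spread behind a p-value here may be technical. That spread was estimated within the groups of all 27 libraries together, not from the 6 alone.

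White adipose tissue stores triglyceride in adipocytes and secretes hormones such as leptin and adiponectin. As a visceral pad takes up surplus fat, its adipocytes enlarge and macrophages gather around them. Some of these take up lipid, carry the surface receptor Trem2 and build up lysosomes, and they are known as lipid-associated macrophages. Insulin action on adipocytes commonly weakens in the same setting.

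The 3 gain4 libraries held 29532765 to 32728594 counts and the 3 control16 libraries 27594037 to 30575219. Levels below are TMM-scaled CPM, read counts relative to the library's scaled total, given in the order of replicates 1, 2 and 3. Each change is an edgeR log2 fold change ± SE, gain4 minus control16, with its adjusted p. The SE was worked back from the test, as the absolute log2 fold change divided by the square root of its F statistic. The adipocyte markers Adipoq, Plin1, Fabp4 and Cidec were high in all 6 libraries, Adipoq at 2467 CPM or more, and Wt1, a gene of visceral fat and its covering, lay between 4.44 and 12.4 CPM. Lars2, a mitochondrial leucyl-tRNA synthetase gene, divided the libraries of the series at 1000 CPM. Control16 replicates 1 and 2 were at 3094 and 2115 CPM and gain4 replicate 2 at 1325 CPM, which is called the high Lars2 set. Control16 replicate 3 was at 156 CPM and gain4 replicates 1 and 3 at 128 and 113 CPM, the low Lars2 set. The diet groups are thus unevenly spread over the 2 sets, and differences within each set are given beside the main results. Control16 replicate 2 also carried more smooth muscle RNA than the other 5 libraries, with 3946 CPM summed over 10 genes against 1009 to 1559, and gain4 replicate 2 more red cell RNA, with 5989 CPM summed over 9 genes against 1184 to 2239.

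Of 17821 genes tested, 1037 differed between the diets (5.82%) at an adjusted p under 0.05. In gain4, 677 genes were higher (3.8%) and 360 lower (2.02%), and 340 of the higher and 156 of the lower genes differed by at least 2-fold. The median log2 fold change of all genes was -0.02. In 648 of the higher and 340 of the lower genes the 2 groups did not overlap, against 14.1% of all genes with gain4 wholly above control16 and 11.3% wholly below. The calls were made on the same values, so this separation is no further check of them. Counts of called genes in every list below are to be read against the shares of 3.8% higher and 2.02% lower. The count of calls depended on the control libraries. It was 0 in a fit of the 6 libraries alone (smallest adjusted p 0.0879, 3141 genes at an unadjusted p under 0.05, and 2105 calls by DESeq2 in the fit of all libraries). It was also 0 without control16 replicate 1 (3303 genes at an unadjusted p under 0.05) and 3 without control16 replicate 2, but 1504 without control16 replicate 3. None of the 78 called genes whose values are given below kept its call without control16 replicate 1 or without control16 replicate 2. Without gain4 replicate 2 there were 465 calls, and without 3 libraries of other groups that enter the pooled spread there were 2624 (maintenance replicate 3, loss replicate 1 and the third library of the 12-week controls).

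**Figure D1:**
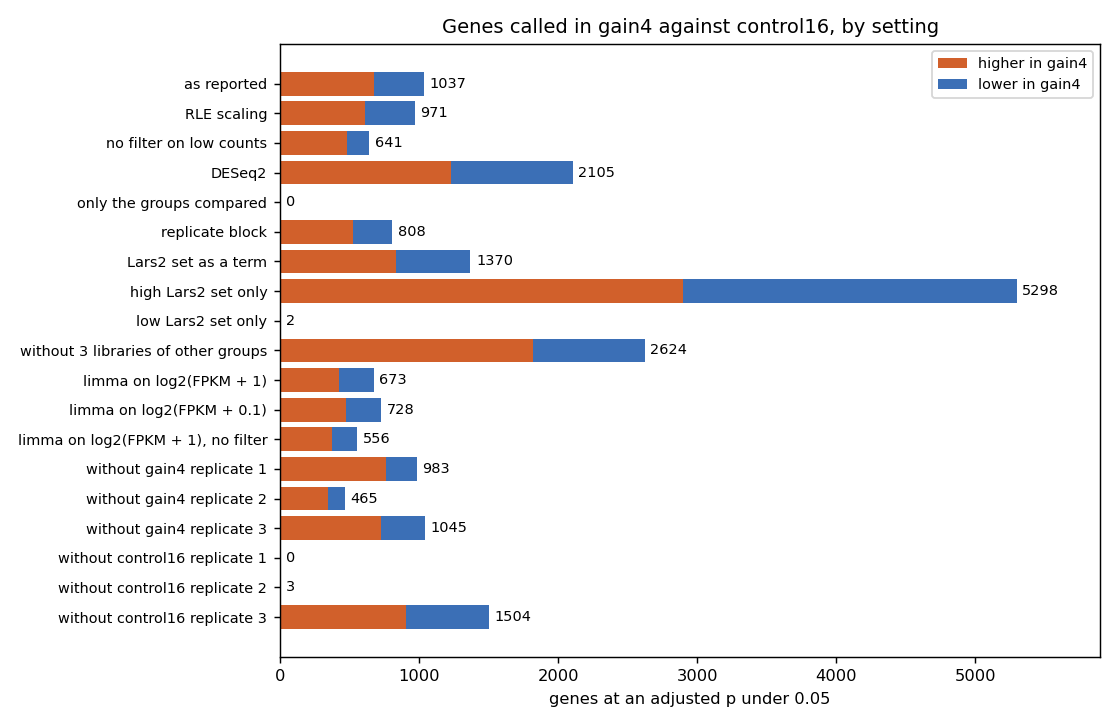
Number of genes called at an adjusted p under 0.05 in gain4 against control16 (horizontal axis) under each setting (vertical axis), with genes higher in gain4 in orange and lower in blue and the total printed beside each bar. The reported fit gives 1037 genes, and the fits of the compared groups only and without control16 replicate 1 give 0.

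Control16 replicate 3 was the control nearest to gain4 in most called genes. It was the highest control in 493 of the 648 higher genes whose groups did not overlap (76.1%) and the lowest control in 277 of the 340 such lower genes (81.5%). It is the 1 control of the low Lars2 set, which also holds 2 of the 3 gain4 libraries. Within gain4, replicate 2 of the high set was most often the library farthest from control16. This held in 307 of the 648 higher genes (47.4%) and 188 of the 340 lower genes (55.3%). The part of the Lars2 set in this order was not tested. Adding the Lars2 set as a term gave 1370 calls. The low set alone, with 1 control library against 2 gain4 libraries, gave 2, and the high set alone, with 2 against 1, gave 5298.

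Among called genes whose groups did not overlap and whose mean was 5 CPM or more in gain4, the 12 largest rises included genes of inflammation and of phagocytes. Saa3, an acute-phase protein that inflamed adipose tissue makes, was at 3.63, 3.41 and 9.16 CPM in control16 and 228, 23.8 and 435 CPM in gain4. All gain4 libraries were above all controls, and replicate 2 was far below the other two. The change was 5.40 ± 1.06, adjusted p = 0.013. Saa3 has close relatives in its gene family, and how the authors treated reads that match several of them is not known here. Ubd, a ubiquitin-like modifier induced in inflammation, followed the same order at 3.41, 2.66 and 22.0 CPM in control16 and 188, 40.2 and 322 CPM in gain4, a change of 4.29 ± 0.91, adjusted p = 0.0165. Il1rn, the antagonist of the interleukin-1 receptor, was at 1.24, 1.26 and 6.28 CPM in control16 and 26.2, 32.97 and 59.9 CPM in gain4 (3.75 ± 0.81, adjusted p = 0.017). Here all 3 gain4 libraries stood well above the controls, of which replicate 3 was the highest.

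The remaining genes among the 12 were Pvalb, a calcium-binding protein (4.75 ± 0.86, adjusted p = 0.00926), Vsig8 (4.06 ± 0.72, adjusted p = 0.00911), the clotting factor gene F7 (3.69 ± 0.64, adjusted p = 0.00911), Tm4sf19 (3.52 ± 0.84, adjusted p = 0.024), the membrane metalloprotease gene Adam8 (3.32 ± 0.75, adjusted p = 0.0196) and 4 genes of lipid-associated macrophages described next. In each of them the 3 gain4 libraries lay above the 3 controls. Pvalb and Tm4sf19 were lowest within gain4 in replicate 2, at 2.48 and 2.86 CPM, and Vsig8 was highest there, at 36.2 CPM.

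**Figure D2:**
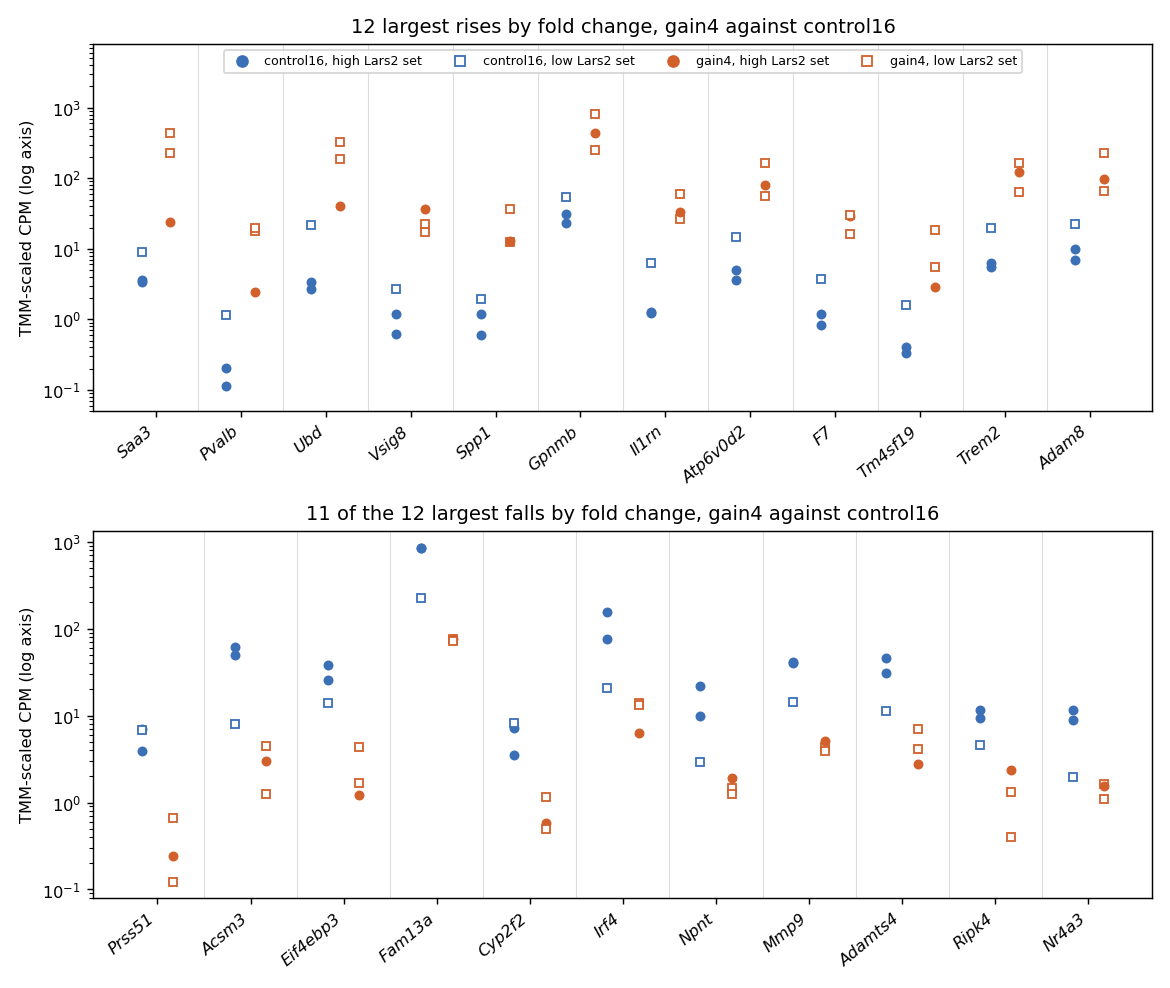
TMM-scaled CPM on a log axis in each of the 6 libraries for the 12 genes with the largest rises (upper panel) and 11 of the 12 with the largest falls (lower panel) in gain4, control16 in blue and gain4 in orange. Filled circles are libraries of the high Lars2 set and open squares those of the low set. The groups do not overlap in any of these genes, a condition of their choice, and the open blue square of control16 replicate 3 is mostly the control nearest to gain4.

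Of the 22 genes of lipid-associated macrophages listed and tested, 9 rose and 0 fell, against 3.8% and 2.02% of all genes, and 17 had all gain4 libraries above all controls (14.1% of all genes). Their median log2 fold change was 1.01, beside -0.02 for all genes. The called members spanned log2 fold changes of 1.05 to 4.05. In whole tissue, fewer or more cells of a type and less or more RNA per cell cannot be told apart. Trem2, the lipid-sensing receptor that defines these cells, was at 5.50, 6.25 and 19.5 CPM in control16 and 63.3, 124 and 166 CPM in gain4. The groups were apart, with control16 replicate 3 between the other controls and gain4, and the change was 3.49 ± 0.70, adjusted p = 0.013. Gpnmb, a glycoprotein of lipid-laden phagocytes, was at 23.1, 31.6 and 54.3 CPM in control16 and at 253, 443 and 806 CPM in gain4 (3.78 ± 0.78, adjusted p = 0.0144), so that even the lowest gain4 library was over 4 times the highest control. Atp6v0d2, a subunit of the proton pump that acidifies lysosomes, went from 5.02, 3.58 and 14.8 CPM to 56.7, 80.5 and 167 CPM (3.70 ± 0.76, adjusted p = 0.0144).

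Lgals3, which encodes the lectin galectin-3 of activated macrophages, was at 135, 99.2 and 249.6 CPM in control16 and 633, 905 and 1206 CPM in gain4. It rose by 2.50 ± 0.45 with an adjusted p of 0.00911, and here too replicate 3 was the highest control. Spp1, which encodes osteopontin, was at 0.599, 1.19 and 1.93 CPM and 12.7, 13.0 and 36.6 CPM (4.05 ± 1.16, adjusted p = 0.0433), and its call was also lost without gain4 replicate 2 or 3 or control16 replicate 3. Mmp12, the macrophage elastase, was at 8.50, 13.5 and 46.6 CPM and 136, 306 and 234 CPM (3.30 ± 0.86, adjusted p = 0.031). Within the Lars2 sets the median difference of the list in log2 CPM was 1.15 in the high set and 0.79 in the low set, beside -0.04 and -0.01 for all genes. Trem2 differed by 4.38 in the high set and 2.39 in the low set.

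The broader macrophage list gave fewer calls. Of 22 genes tested 5 rose and 0 fell, against 3.8% and 2.02% of all genes. In 15 gain4 lay wholly above control16 (14.1% of all genes), and the median log2 fold change of the list was 1.10. Its summed level was 2062 to 2575 CPM in control16 and 2923 to 5473 CPM in gain4. Slc37a2, a sugar-phosphate transporter of macrophages, was at 14.1, 12.9 and 21.2 CPM in control16 and 59.8, 52.1 and 172 CPM in gain4 (2.55 ± 0.51, adjusted p = 0.013). Cd68, a protein of the endosomes and lysosomes of macrophages, was at 63.4, 61.0 and 85.8 CPM and 152, 219 and 373 CPM (1.82 ± 0.47, adjusted p = 0.0304), and Cd84, a receptor of immune cells, rose by 1.75 ± 0.45 with an adjusted p of 0.031. Gain4 replicate 3 was highest and the groups were apart in all 3 genes. Emr1, which encodes the classical marker F4/80, was at 81.3, 72.5 and 77.6 CPM in control16 and 142, 96.3 and 334 CPM in gain4, and did not pass the test (1.31 ± 0.39, adjusted p = 0.0508). Itgax, which encodes CD11c, was at 7.34, 8.94 and 39.97 CPM and 43.5, 52.1 and 78.7 CPM. Its groups were apart by a small gap between control16 replicate 3 and gain4 replicate 1, and it did not pass the test either (1.63 ± 0.59, adjusted p = 0.0978). Without gain4 replicate 3 only 1 of the 22 macrophage genes was called, and without replicate 2 there were 3. Differences in log2 CPM within the high and low Lars2 sets were 1.94 and 2.25 for Slc37a2 and 1.82 and 1.47 for Cd68. They were 1.27 and 1.71 for Cd84. The sets differed more for the 2 uncalled genes, with 0.33 and 1.49 for Emr1 but 2.68 and 0.55 for Itgax.

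Genes of resident macrophages gave no calls. Of 16 tested, 0 rose and 0 fell, with a median log2 fold change of -0.11. Cd163, a scavenger receptor for haemoglobin, was at 262, 203 and 147 CPM in control16 and 148, 40.3 and 171 CPM in gain4, where replicate 2 stood apart as the lowest (-0.77 ± 0.46, adjusted p = 0.309).

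The lists of chemokines, cytokines, antigen presentation, complement and dendritic cells had 1 or 2 called genes each, read against 3.8% of all genes higher and 2.02% lower. Among 24 genes of monocyte chemokines and their receptors 2 rose and 0 fell. Ccl2, a member that rose and the main monocyte chemoattractant, was at 2.40, 2.80 and 10.7 CPM in control16 and 16.4, 29.3 and 19.7 CPM in gain4 (2.03 ± 0.50, adjusted p = 0.025). Control16 replicate 3 stood well above the other controls for Ccl2, yet below every gain4 library. Among 21 inflammatory cytokine genes 2 rose, Il1rn and Casp1, the protease that matures interleukin-1 (1.08 ± 0.28, adjusted p = 0.0326). Of 11 genes of MHC class II presentation 2 rose, the peptide loader H2-DMb1 (1.27 ± 0.30, adjusted p = 0.024) and the protease Ctss (1.75 ± 0.47, adjusted p = 0.0359). The complement list gave 1 rise in 16, the anaphylatoxin receptor C3ar1 (1.57 ± 0.45, adjusted p = 0.0418). The 10 dendritic cell genes gave 1 fall, the transcription factor Zbtb46 (-1.03 ± 0.26, adjusted p = 0.0297). The list had no common direction, with 6 members above 0 and 4 below. Sirpa, Irf8 and Batf3 had gain4 wholly above control16 but were not called.

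No gene was called in the lists of T and NK lymphocytes (20 tested, median log2 fold change -0.69), B lymphocytes (11, -0.64), mast cells (10, -0.75), neutrophils (7, 0.53) or interferon-induced genes (22, -0.035). All 10 mast cell genes had a log2 fold change below 0, but in most of them the groups overlapped. Control16 replicate 1 stood far above the other controls in Tpsb2, Cpa3, Cma1 and Mcpt4. Tpsb2, for example, was at 25.9, 10.3 and 11.2 CPM in control16 and 6.87, 8.99 and 6.43 CPM in gain4.

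Lysosomes digest what macrophages take up, and their genes were listed apart. Of 27 tested 7 rose and 0 fell, against 3.8% and 2.02% of all genes, with a median log2 fold change of 0.58. In 18 gain4 lay wholly above control16 (14.1% of all genes). Hydrolases led the list. Gla, alpha-galactosidase A, was at 7.34, 8.33 and 8.99 CPM in control16 and 20.9, 22.9 and 34.2 CPM in gain4 (1.66 ± 0.32, adjusted p = 0.0109). Naglu, which breaks down heparan sulphate, was at 31.1, 33.9 and 46.2 CPM and 65.1, 63.7 and 65.8 CPM (0.81 ± 0.13, adjusted p = 0.00816), and Gusb, beta-glucuronidase, at 81.9, 75.1 and 90.3 CPM and 138, 181 and 221 CPM (1.13 ± 0.24, adjusted p = 0.0165). The groups were apart for all 3, and for Naglu the gain4 libraries were nearly equal. The other 4 called members were Hexa, Ctsz, Tfeb and Atp6v1b2. Within the Lars2 sets the median difference of the list was 0.42 in the high set and 0.50 in the low set in log2 CPM.

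Many lysosome genes carry the E-box CACGTG near their start, within a longer element that the factor Tfeb reads. The promoters of Gla and Naglu are shown because, of the 6 called lysosome genes with a promoter entry, only these 2 hold the letters. The 250 bases before the start, from RefSeq on GRCm38.p6, lie at chrX:134601006-134601255 on the minus strand for Gla and chr11:101069844-101070093 on the plus strand for Naglu. Capitals mark CACGTG, which reads the same on both strands.
Gla: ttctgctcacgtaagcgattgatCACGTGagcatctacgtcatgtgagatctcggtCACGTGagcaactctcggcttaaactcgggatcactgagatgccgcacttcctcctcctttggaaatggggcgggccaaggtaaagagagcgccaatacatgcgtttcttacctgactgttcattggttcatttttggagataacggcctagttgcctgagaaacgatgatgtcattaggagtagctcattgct
Naglu: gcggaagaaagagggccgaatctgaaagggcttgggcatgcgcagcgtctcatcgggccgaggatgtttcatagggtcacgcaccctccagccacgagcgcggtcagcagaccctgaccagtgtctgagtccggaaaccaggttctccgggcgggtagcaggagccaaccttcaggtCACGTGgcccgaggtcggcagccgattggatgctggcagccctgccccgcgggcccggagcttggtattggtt
The Gla window held 2 matches and the Naglu window 1. Of the 27 lysosome genes tested 19 had a promoter entry, and CACGTG was in 9 of them (47.4%), beside 9.18% of 12185 tested genes with an entry. Among the 6 called lysosome genes with an entry it was in 2 (33.3%), the 2 shown. Gusb, also called and with an entry, did not hold it. The 8-letter form TCACGTGA, which contains the E-box, was in 5 of the 19 (26.3%), beside 1.54%. A match describes the letters and shows no binding.

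Cell cycle genes formed the list with the most calls. Of 30 tested, 12 rose and 0 fell, against 3.8% and 2.02% of all genes. All 30 had a log2 fold change above 0, and 20 had gain4 wholly above control16 (14.1% of all genes). The median log2 fold change was 1.05 and called members spanned 0.79 to 2.18. Birc5, which encodes survivin of the chromosomal passenger complex, was at 2.06, 1.91 and 2.40 CPM in control16 and 6.70, 9.03 and 13.2 CPM in gain4 (2.18 ± 0.35, adjusted p = 0.00816). Ube2c, the ubiquitin-conjugating enzyme of the anaphase-promoting complex, was at 3.93, 3.11 and 3.04 CPM and 7.61, 10.9 and 11.9 CPM (1.59 ± 0.28, adjusted p = 0.00911). Tyms, thymidylate synthase, was at 5.73, 6.48 and 8.38 CPM and 9.89, 13.9 and 11.9 CPM (0.79 ± 0.18, adjusted p = 0.0217). The groups were apart for all 3. The other called members were Pcna, Aurka, Aurkb, Cenpe, Mki67, Mcm5, Tpx2, Ccnb1 and Cdk1. Which cells of the pad divided was not measured. The number called was 3 without gain4 replicate 3 and 7 without gain4 replicate 2, and also 7 with the replicate number as a block. Birc5 differed by 2.15 in log2 CPM in the high Lars2 set and by 1.94 in the low set.

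Genes of late cell cycle often hold CCAAT boxes and a cell cycle homology region, TTTGAA, near the start. Ube2c and Birc5 are shown because they had the largest changes among the called members and differ in these letters. The 250 bases before the start lie at chr2:164769679-164769928 for Ube2c and at chr11:117848987-117849236 for Birc5, both on the plus strand (RefSeq, GRCm38.p6). Capitals mark CCAAT or TTTGAA on either strand, so that ATTGG and TTCAAA are marked too, and one CCAAT overlaps one ATTGG.
Ube2c: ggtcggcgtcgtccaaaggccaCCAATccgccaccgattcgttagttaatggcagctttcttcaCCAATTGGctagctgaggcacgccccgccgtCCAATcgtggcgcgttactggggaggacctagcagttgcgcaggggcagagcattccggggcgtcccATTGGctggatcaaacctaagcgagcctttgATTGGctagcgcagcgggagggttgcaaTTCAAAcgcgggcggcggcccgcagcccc
Birc5: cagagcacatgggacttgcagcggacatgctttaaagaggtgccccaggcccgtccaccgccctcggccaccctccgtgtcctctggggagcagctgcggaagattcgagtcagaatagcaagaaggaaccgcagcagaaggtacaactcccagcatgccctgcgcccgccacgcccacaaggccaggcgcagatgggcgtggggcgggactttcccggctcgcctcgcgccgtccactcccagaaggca
Ube2c held 6 CCAAT matches and 1 TTTGAA match, and Birc5 held 0 of either in this window. Of the 30 listed genes 24 had an entry. CCAAT was in 20 of the 24 (83.3%), beside 39.6% of all tested genes with an entry, and in 8 of the 10 called genes with one. TTTGAA was in 8 of the 24 (33.3%), beside 13.3%, and in 3 of the 10 called.

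**Figure D3:**
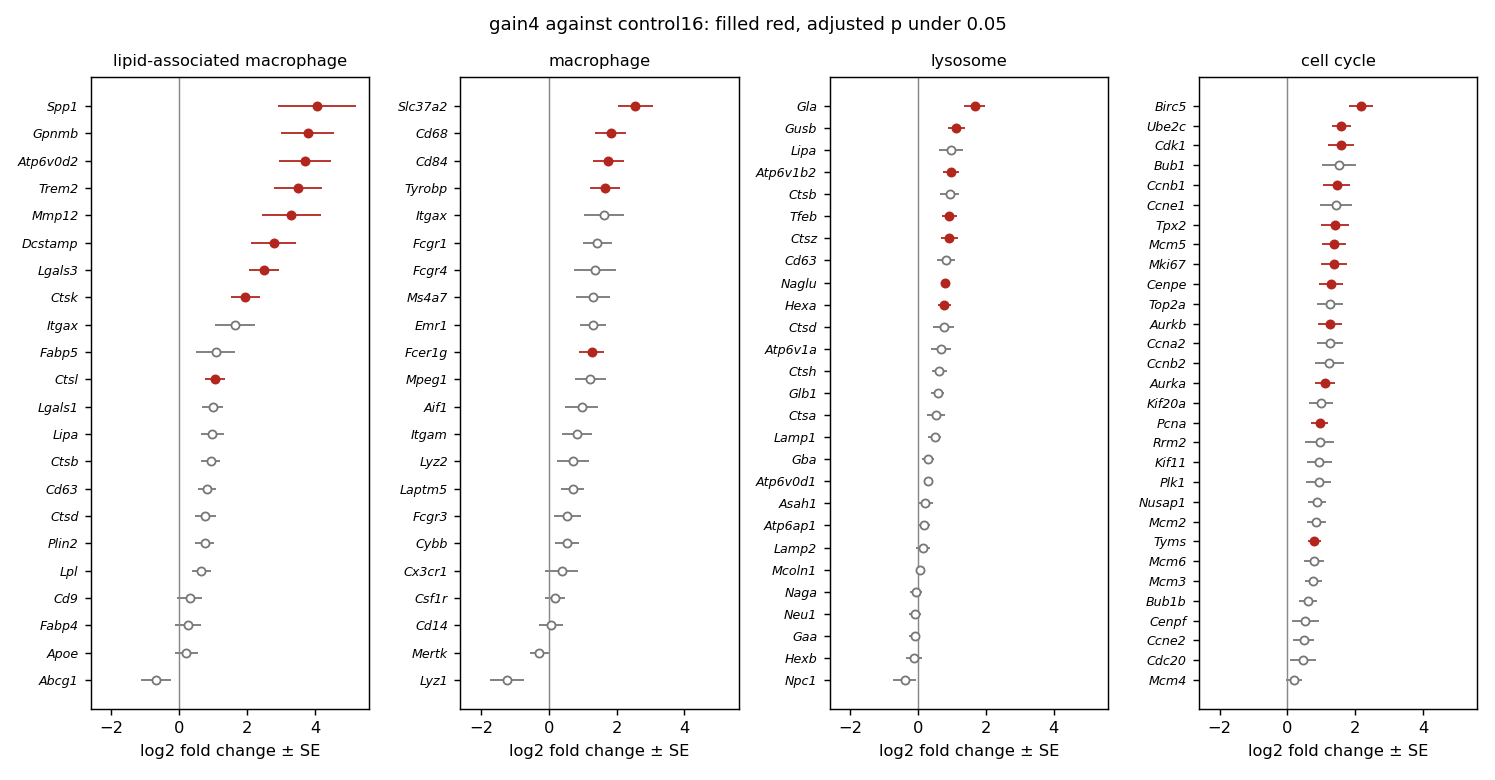
Log2 fold change ± SE in gain4 against control16 (horizontal axis) for each tested member of the lipid-associated macrophage, macrophage, lysosome and cell cycle lists (vertical axis), red where the adjusted p was under 0.05. The 9, 5, 7 and 12 called genes all lie above 0, and every cell cycle gene does.

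Of 18 adipokine genes 2 rose and 0 fell, Saa3 and Metrnl, which encodes a secreted protein of the meteorin family and was at 29.6, 23.1 and 24.7 CPM in control16 and 51.0, 62.4 and 74.3 CPM in gain4 (1.28 ± 0.30, adjusted p = 0.0235). Lep, which encodes leptin, was at 985, 754 and 2624 CPM in control16 and 5218, 1894 and 5250.4 CPM in gain4. Control16 replicate 3 was above gain4 replicate 2, so the groups overlapped, and Lep did not pass the test (1.502 ± 0.65, adjusted p = 0.158). Adipoq, which encodes adiponectin, was at 4279, 3510.2 and 3819.9 CPM and 4223, 5529 and 2467 CPM with overlapping groups (0.07 ± 0.43, adjusted p = 0.94). Of 14 acute-phase genes Saa3 and Hp rose and Cp fell. Hp, haptoglobin, was at 1923, 1039.6 and 2527 CPM in control16 and 8743, 3488 and 14750.3 CPM in gain4 (2.30 ± 0.45, adjusted p = 0.013), and Cp, the copper-carrying ferroxidase ceruloplasmin, at 303, 329.5 and 184 CPM and 136, 92.4 and 147 CPM (-1.12 ± 0.27, adjusted p = 0.0235). Gain4 replicate 2 was lowest in gain4 for both.

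Tph2 and Gpr50 varied widely within gain4. Tph2, the tryptophan hydroxylase of the brain, was at 0.637, 0.819 and 8.31 CPM in control16 and 151, 3.10 and 314 CPM in gain4. Gpr50, an orphan receptor of the melatonin receptor family, was at 0.0374, 0.205 and 5.20 CPM and 81.5, 3.55 and 147 CPM. In both genes gain4 replicates 1 and 3 were far above every control, while replicate 2 lay below control16 replicate 3, so the groups overlapped although both were called (5.57 ± 1.26, adjusted p = 0.0197 for Tph2 and 5.40 ± 1.40, adjusted p = 0.0309 for Gpr50).

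The largest falls included genes of metabolism and of transcriptional control. Fam13a, a gene with a GTPase-activating domain on chromosome 6 (GRCm38 positions 58932090 to 59024549, minus strand), was at 843, 839.9 and 225 CPM in control16 and 75.1, 76.4 and 72.0 CPM in gain4. The gain4 libraries were nearly equal and all below the controls, of which replicate 3 was far below the other two. The change was -3.09 ± 0.50, adjusted p = 0.00816, and in log2 CPM the difference was -3.46 in the high and -1.61 in the low Lars2 set. Irf4, a transcription factor of immune cells that in adipocytes responds to fasting, was at 154, 76.2 and 20.6 CPM and 14.0, 6.31 and 13.2 CPM (-2.90 ± 0.62, adjusted p = 0.0165), with differences of -4.09 in the high and -0.60 in the low set. Acsm3, a mitochondrial acyl-CoA synthetase for medium chains, was at 49.5, 60.9 and 7.91 CPM and 4.42, 3.03 and 1.26 CPM (-3.77 ± 0.77, adjusted p = 0.0144). As with Irf4, control16 replicate 3 lay much nearer to gain4 than the other controls.

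Others among the 12 largest falls were the protease gene Prss51 (-4.11 ± 1.07, adjusted p = 0.031), Eif4ebp3, an inhibitor of translation initiation (-3.42 ± 0.81, adjusted p = 0.0236), the cytochrome P450 gene Cyp2f2 (-3.08 ± 0.88, adjusted p = 0.0425), the matrix gene Npnt (-2.89 ± 0.80, adjusted p = 0.038), the kinase gene Ripk4 (-2.64 ± 0.61, adjusted p = 0.0217), the orphan nuclear receptor gene Nr4a3 (-2.40 ± 0.60, adjusted p = 0.0271), and Mmp9 and Adamts4, described with their list. Cyp2f2 lost its call whichever of the 6 libraries was left out, and Npnt and Nr4a3 whichever gain4 library was. Nr4a3 was at 11.7, 8.94 and 1.96 CPM in control16 and 1.61, 1.55 and 1.10 CPM in gain4, so its groups were apart by a narrow margin.

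Of 22 genes of insulin signalling and glucose transport 3 fell and 0 rose, against 2.02% and 3.8% of all genes. Insr, the insulin receptor, was at 222, 189.8 and 167 CPM in control16 and 118, 83.2 and 112 CPM in gain4 (-0.89 ± 0.18, adjusted p = 0.0148). Irs1, the adaptor that the receptor phosphorylates, was at 35.0, 35.4 and 16.1 CPM and 15.01, 4.79 and 12.8 CPM (-1.41 ± 0.34, adjusted p = 0.025), and Grb10, an adaptor that restrains the receptor, at 145, 112 and 119 CPM and 81.6, 51.3 and 75.6 CPM (-0.85 ± 0.23, adjusted p = 0.0358). All 3 genes had gain4 wholly below control16, lowest in gain4 replicate 2, and for Irs1 control16 replicate 3 was only just above gain4 replicate 1. Irs1 differed by -2.86 in log2 CPM in the high Lars2 set and by -0.22 in the low set. Slc2a4, the insulin-responsive glucose transporter GLUT4, was at 53.8, 65.7 and 90.6 CPM and 112, 204 and 89.4 CPM with overlapping groups (0.95 ± 0.52, adjusted p = 0.264).

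No gene of the adipocyte identity list was called. Of 24 identity genes 0 rose and 0 fell, with a median log2 fold change of 0.04. Pck1, which makes glycerol phosphate for triglyceride, was at 5943, 4584 and 3509.9 CPM in control16 and 2073, 1960.2 and 892 CPM in gain4 and did not pass the test although its groups were apart (-1.51 ± 0.58, adjusted p = 0.115). Among 20 adipogenic transcription factors 2 fell and 0 rose, Ebf2, which marks committed and beige preadipocytes (-1.32 ± 0.25, adjusted p = 0.0106), and Stat5b (-0.50 ± 0.14, adjusted p = 0.038). The fat-pad expansion list gave 1 rise in 12, Prkcdbp, which encodes a caveolar protein, at 141, 130.1 and 253 CPM and 396, 498 and 306 CPM (1.19 ± 0.31, adjusted p = 0.0305). Mest, Sfrp5 and Npr3, genes linked with the growth of fat pads, did not pass. Mest was at 314, 236 and 937 CPM in control16 and 1054, 177 and 641 CPM in gain4 (0.33 ± 0.88, adjusted p = 0.851), Sfrp5 had a change of 0.70 ± 0.93, adjusted p = 0.676 and Npr3 one of 0.29 ± 0.51, adjusted p = 0.759. In Mest and Sfrp5 control16 replicate 3 stood far above the other controls, and the groups overlapped in all 3 genes.

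Among 19 lipogenesis genes 1 fell and 0 rose. Acacb, the acetyl-CoA carboxylase whose product restrains fat oxidation, was at 375, 329 and 235 CPM in control16 and 92.1, 58.8 and 119 CPM in gain4 (-1.80 ± 0.41, adjusted p = 0.0197). Scd1, the stearoyl-CoA desaturase, was at 40640.0, 28138 and 47443 CPM and 45765, 9309 and 19246 CPM (-0.65 ± 0.60, adjusted p = 0.532), and Fasn, fatty acid synthase, at 632, 572 and 1009 CPM and 1111, 249 and 1411 CPM (0.32 ± 0.98, adjusted p = 0.871). Both were lowest in gain4 replicate 2, where Fasn was far below the other gain4 libraries, and in both the groups overlapped. Of 14 lipid droplet genes the coat protein gene Plin3 rose (0.61 ± 0.13, adjusted p = 0.0172). Of 20 genes of lipolysis and adrenergic receptors the adenosine receptor gene Adora1 rose (1.17 ± 0.30, adjusted p = 0.031), and 1 gene of the list fell. Adrb3, the main adrenergic receptor of mouse adipocytes, was at 534, 558 and 348 CPM and 265, 541 and 187 CPM (-0.54 ± 0.47, adjusted p = 0.507). Ucp1, the uncoupling protein of thermogenic adipocytes, was at or under 0.345 CPM in each of the 6 libraries (1.58 ± 1.44, adjusted p = 0.525), and of 14 thermogenic genes 1 rose, Otop1. No gene was called among those of fatty acid uptake (14 tested), triglyceride synthesis (15), PPAR targets (20) or the citrate cycle (20).

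Sterol genes had a median log2 fold change of 0.64 over 22 members of the synthesis and uptake list, of which 20 were above 0, 11 had gain4 wholly above control16 (14.1% of all genes) and 1, the sterol isomerase gene Ebp, rose (0.60 ± 0.17, adjusted p = 0.0425). In the efflux list 1 of 11 rose, Soat1, which esterifies cholesterol (1.499 ± 0.41, adjusted p = 0.0381).

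Nuclear genes of oxidative phosphorylation lay above 0 in 43 of 44 cases with a median log2 fold change of 0.59, but only 2 passed the test, Atp5g1 (0.66 ± 0.18, adjusted p = 0.0359) and Ndufb3 (0.97 ± 0.29, adjusted p = 0.0492). Gain4 replicate 2 was the highest library, and the list summed to 9233, 12273 and 7326 CPM in gain4 and 7274, 5987 and 7837 CPM in control16. The median difference was 1.10 in log2 CPM in the high Lars2 set, which holds that library, and 0.08 in the low set. Ribosomal protein genes followed the same library, at 12141, 18778 and 10332 CPM in gain4 and 9602, 8889.6 and 8617 CPM in control16 summed over 30 genes. All 30 were above 0 with a median of 0.64, 22 had gain4 wholly above control16 (14.1% of all genes), and 0 were called. The 13 genes of the mitochondrial genome had 1 fall, mt-Nd5 (-1.18 ± 0.34, adjusted p = 0.0429), 0 rises and a median of -0.54. Fatty acid oxidation gave 2 rises in 30, beside 3.8% of all genes, Acaa1a (0.67 ± 0.18, adjusted p = 0.035) and Acaa2 (0.77 ± 0.22, adjusted p = 0.04). Branched-chain amino acid breakdown gave 1 rise, Mcee (0.82 ± 0.21, adjusted p = 0.0297), and 1 fall, Ppm1k (-0.95 ± 0.28, adjusted p = 0.0493), in 22.

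**Figure D4:**
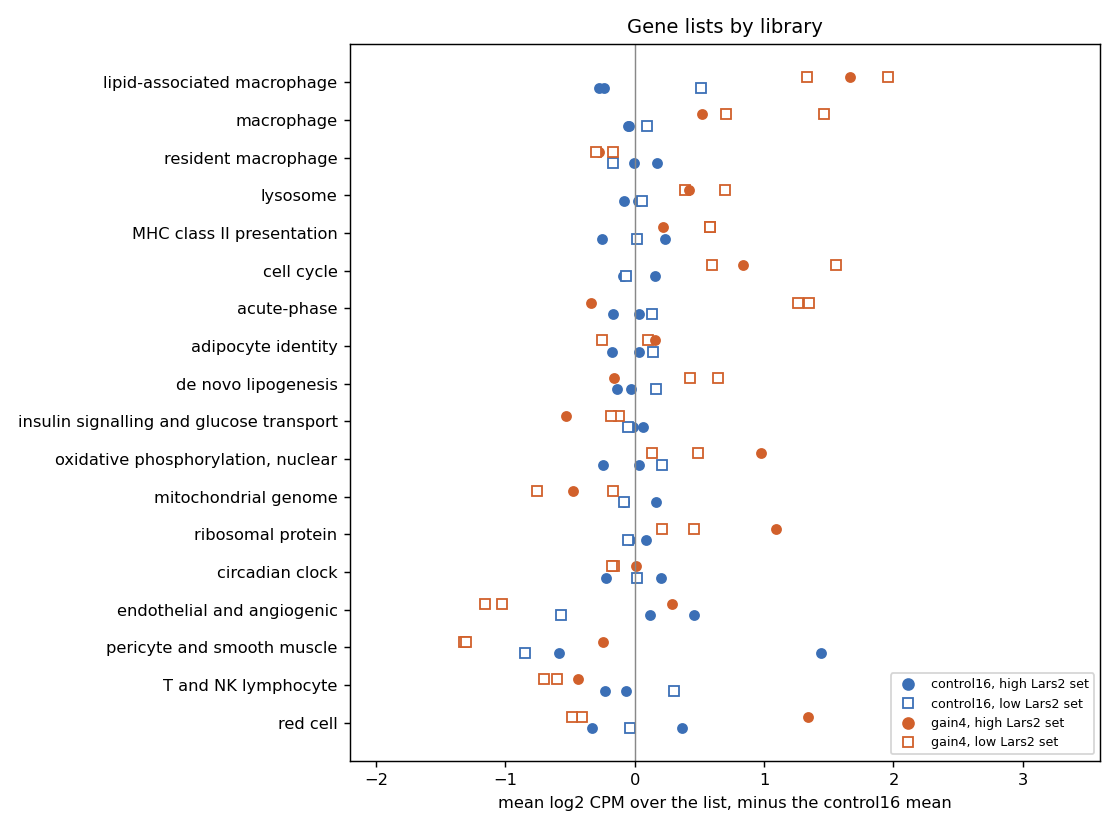
Mean log2 CPM of each gene list (vertical axis) in each library, minus the mean of the 3 control16 libraries (horizontal axis). Control16 is blue and gain4 orange, with filled circles for the high and open squares for the low Lars2 set. The lipid-associated macrophage, macrophage, lysosome and cell cycle lists have all 3 gain4 libraries above the controls, while ribosomal protein and red cell genes are highest in gain4 replicate 2 and smooth muscle genes in control16 replicate 2.

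Of 19 circadian clock genes 3 fell and 0 rose, against 2.02% and 3.8% of all genes. Arntl, which encodes the clock activator BMAL1, was at 28.4, 19.5 and 16.2 CPM in control16 and 9.92, 8.51 and 12.1 CPM in gain4 (-1.07 ± 0.28, adjusted p = 0.0311). Npas2, which encodes a partner of BMAL1, was at 15.5, 9.18 and 3.95 CPM and 2.38, 1.38 and 2.24 CPM (-2.25 ± 0.56, adjusted p = 0.027). Control16 replicate 1 was the highest control in both, and the groups did not overlap in either. The repressor gene Nr1d1 was at 102, 153 and 129 CPM and 83.5, 118 and 62.0 CPM (-0.54 ± 0.35, adjusted p = 0.351). Dbp, a clock output gene, was at 3.52, 16.1 and 8.95 CPM and 19.5, 56.5 and 18.0 CPM, higher in every gain4 library and highest in replicate 2, but did not pass the test (1.71 ± 0.85, adjusted p = 0.216). The hour of sampling is not known here.

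Matrix genes were called in both directions, read against 3.8% of all genes higher and 2.02% lower. Collagen genes gave 2 rises in 26, Col6a1 (1.18 ± 0.31, adjusted p = 0.0316) and Col6a2 (1.28 ± 0.35, adjusted p = 0.0381), which encode chains of microfibrillar collagen VI and overlapped between groups, with gain4 replicate 2 below the highest control. Col1a1, the main fibrillar collagen, was at 308, 347 and 348 CPM in control16 and 398, 339 and 717 CPM in gain4 (0.54 ± 0.32, adjusted p = 0.303). Lum, a proteoglycan of collagen fibrils, rose (1.54 ± 0.39, adjusted p = 0.0278), as did Mfap2 of elastic microfibrils (1.02 ± 0.25, adjusted p = 0.0271), while Ltbp1, which stores latent TGF-beta, fell (-0.77 ± 0.18, adjusted p = 0.0243). Of 18 proteases and inhibitors 2 rose, Mmp12 and Timp1, and 2 fell. Mmp9, gelatinase B, was at 41.7, 39.96 and 14.4 CPM in control16 and 4.31, 5.13 and 3.89 CPM in gain4 (-2.85 ± 0.49, adjusted p = 0.00911), and Adamts4, an aggrecan protease, at 45.7, 30.5 and 11.3 CPM and 4.10, 2.76 and 7.02 CPM (-2.65 ± 0.57, adjusted p = 0.0165). In both the 3 gain4 libraries were below the lowest control, replicate 3. In the TGF-beta list 1 of 20 fell, the ligand gene Bmp2 (-1.31 ± 0.31, adjusted p = 0.0232).

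Vessel genes gave 1 fall in 22, Vegfa, the endothelial growth factor, at 582, 534 and 289 CPM and 245, 115 and 219.5 CPM (-1.27 ± 0.36, adjusted p = 0.0407). Its difference in log2 CPM was -2.27 in the high Lars2 set and -0.32 in the low set. In the hypoxia and glycolysis list Car9, a carbonic anhydrase of hypoxic cells, rose from 0.187, 0.580 and 0.608 CPM to 1.05, 0.999 and 2.79 CPM (1.80 ± 0.50, adjusted p = 0.0401), and Vegfa was the 1 fall in its 20 genes. Stress genes of the unfolded protein response gave 2 rises and 1 fall in 17. Atf3, a stress-induced transcription factor, was at 8.28, 9.04 and 11.1 CPM in control16 and 31.4, 58.5 and 71.3 CPM in gain4 (2.50 ± 0.50, adjusted p = 0.013), Ddit3, which encodes CHOP, rose by 1.22 ± 0.25 with an adjusted p of 0.0151, and Xbp1 fell with overlapping groups (-0.59 ± 0.17, adjusted p = 0.0469). Atf3 and Egr2, an early growth response factor (2.21 ± 0.42, adjusted p = 0.0111), were the 2 rises among 19 immediate early and heat shock genes. Sod2, the mitochondrial superoxide dismutase, was the 1 rise in 22 antioxidant genes (1.34 ± 0.34, adjusted p = 0.03).

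No gene was called in the lists of liver, efferent duct, epididymis and sperm, lymph node, red cell, skeletal muscle, nerve, mesothelium, smooth muscle or fibroblasts. Mesothelial genes ran from 27.6 to 328 CPM in sum over the gain4 libraries and from 175 to 326 CPM in control16. Skeletal muscle genes summed to 16.6 to 107 CPM in gain4 and 197 to 296.5 CPM in control16, which was almost all Acta1. Every other member of that list averaged 1.17 CPM or less in either group, and 6 of the 8 members had a log2 fold change above 0. The sum therefore describes Acta1 and not the list. Genes of epididymis and sperm reached 17.1 CPM in control16 replicate 3 and 2.28 CPM or less elsewhere. The part of such tissue in the results above was not tested.

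The exposure of 8 weeks in younger mice gave more calls, 3833 (21.5%), but the 2 effects were not shown to differ. The difference of the 2 effects was called in 0 genes (0%) by edgeR, with 1519 genes at an unadjusted p under 0.05, a smallest adjusted p of 0.117 and 42 calls by DESeq2. The exposures differ both in length and in age, which cannot be told apart. Of the 677 genes higher in gain4, 530 were also called higher in gain8, which is 78.3% of the gain4 list and 24.8% of the gain8 list of 2136. Of the 360 lower genes 209 were also lower in gain8, 58.1% and 12.3% of the lists, and 0 genes were called in opposite directions. These overlaps stand beside 2136 higher and 1697 lower calls in gain8 among all 17821 genes tested. The median log2 fold change of the 677 genes was 1.001 in gain4 and 1.016 in gain8, and that of the 360 genes was -0.90 and -0.65. Since the gain4 values chose these genes, only the gain8 medians are free of that choice.

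Single genes show how the 2 exposures compare. Trem2 was at 8.98, 10.4 and 14.6 CPM in control8 and 136, 283 and 191 CPM in gain8, a change of 4.17 ± 0.72, and the effect in gain4 minus that in gain8 was -0.67 ± 0.90 (adjusted p = 0.836). For Fam13a the values were 351, 344 and 595 CPM and 40.5, 23.3 and 30.5 CPM, a change of -3.78 ± 0.51 and a difference of 0.68 ± 0.65 (adjusted p = 0.769). Lep was at 952, 715 and 817 CPM in control8 and 4205, 5657 and 6338 CPM in gain8, where it was called (2.71 ± 0.68, adjusted p = 0.00744), and the difference of the effects was -1.20 ± 0.90 (adjusted p = 0.706). The macrophage list had 18 of 22 members called higher in gain8 and 5 in gain4, lipid-associated macrophage genes 18 (with 1 lower) and 9, lysosome genes 20 of 27 and 7, and cell cycle genes 28 of 30 and 12. Over all 17821 genes tested, 2136 were called higher in gain8 and 677 in gain4.

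Some genes differed in their gain4 and gain8 values without passing the test of the difference. Adamts4 had a change of 0.05 ± 0.53 in gain8, and the effects differed by -2.71 ± 0.77 (adjusted p = 0.467). Npas2 and Arntl, which fell in gain4, had changes of -0.28 ± 0.53 and 0.16 ± 0.27 in gain8, with differences of -1.97 ± 0.76 (adjusted p = 0.535) and -1.23 ± 0.39 (adjusted p = 0.467). Nr1d1 and Adrb3 were called lower in gain8 (-2.21 ± 0.37 and -2.59 ± 0.50) and were not called in gain4, with differences of 1.67 ± 0.50 (adjusted p = 0.467) and 2.05 ± 0.67 (adjusted p = 0.467).

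**Figure D5:**
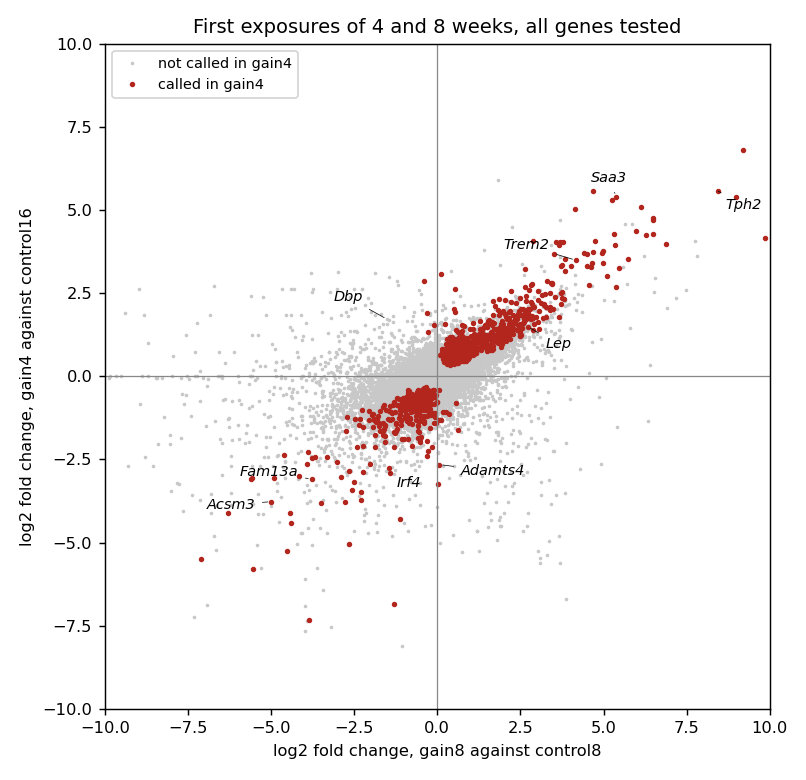
Log2 fold change of each tested gene in gain8 against control8 (horizontal axis) and in gain4 against control16 (vertical axis), red where called in gain4. Most called genes lie at the upper right or lower left, 673 of the 677 higher and 350 of the 360 lower genes having the same sign in gain8, and 2 genes lie outside the axes.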

How the data were processed

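RNA was measured in epididymal fat with libraries from a TruSeq RNA kit, 27 in all. Reads were trimmed with Trimmomatic 0.33, aligned with TopHat2 2.0.13 and counted with HTSeq 0.6.0 on mm10 (GRCm38). These tools come from the submitters' processing notes. Annotation and strand setting are not given in the sources used here. Genes that overlap or have near-identical copies are therefore uncertain. The authors deposited raw read counts per gene (43616 rows, of which 156 repeat a name with identical values and were merged, leaving 43460) and a table of FPKM values (22194 rows), which served only as an alternative. The counts of the 27 libraries were fitted in one model with a mean per group, using edgeR 4.0.16 in R 4.3.3 (quasi-likelihood test, TMM scaling, filterByExpr at its minimum of 10 counts and 15 in total), which left 17821 genes. P-values were adjusted by Benjamini-Hochberg over all of them, with a threshold of 0.05. Differences within a Lars2 set are of mean log2 CPM with a prior count of 2. Positions come from GENCODE M21 (GRCm38) and promoters from RefSeq.

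Named genes were the 12 largest changes a direction among called genes with groups apart, a mean level in the higher group of 5 CPM or more and an assigned symbol (528 higher and 288 lower met this), the 3 members of a list with the smallest adjusted p, and 25 genes set by name. Where the number of called members was small they were named too, after their values were seen. A few named genes are not reported here. The groups, gene lists and named genes were chosen with earlier results of these data known. The alternatives were DESeq2 1.42.0, limma 3.58.1 on log2 FPKM plus 1 or 0.1, other scaling, filters and libraries. The test was also run on counts simulated from the mean and spread of each gene in the fit. Those counts held no Lars2 sets, so the run cannot speak to the dependence on single control libraries. Replicates were no repeated deposits: the chi-square of their counts, divided by its degrees of freedom, was 30.3 to 281. The libraries of each group are few, so 3 against 3 cannot give an exact permutation p under 0.1.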

Additional observations from a re-analysis of the deposited data

Results flagged for a closer look

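Dbp, a clock output gene, moved one way in every gain4 library and the other way in every gain8 library relative to the controls of each. It was at 3.52, 16.1 and 8.95 CPM in control16 and 19.5, 56.5 and 18.0 CPM in gain4, and at 22.9, 16.4 and 13.6 CPM in control8 and 4.69, 7.52 and 6.47 CPM in gain8. The effect in gain4 minus the effect in gain8 was 3.22 ± 1.20 on the log2 scale (edgeR, adjusted p = 0.527, unadjusted p = 0.0139), so it did not pass the test of the difference. Only the genes given with values were searched for this pattern, and Dbp is not the sole case. Pfkp, a listed glycolysis gene outside that search, was lower in every gain4 library and higher in every gain8 library. Its difference was -0.78 ± 0.24 (edgeR, adjusted p = 0.467, unadjusted p = 0.00385).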

How the results depend on the processing

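The 1037 calls (677 higher, 360 lower) fell to 641 without a filter on low counts (157 lower, 75.5% of the calls higher against 65.3%), to 673 by limma on log2(FPKM + 1) (428 higher) and to 556 by the same without a filter (374 higher, 182 lower). DESeq2 gave 2105 (1231 higher, 874 lower). The fit of the compared groups alone gave 0, in both directions. The high Lars2 set, with 1 gain4 library, gave 5298 (2896 higher, 2402 lower) and the low set, with 1 control16 library, 2 (0 higher, 2 lower). Without 3 libraries of other groups there were 2624 (1823 higher, 801 lower). Leaving out 1 library gave 0 to 1504 calls in all, 0 to 908 higher and 0 to 596 lower. The 0 is without control16 replicate 1 and the 1504 without control16 replicate 3. The gain8 count of 3833 was 5898 with the compared groups alone, 0 in the high Lars2 set (1 library against 1, with the spread taken from other groups, which says nothing about stability; 3430 genes at an unadjusted p under 0.05, and 4632 calls by DESeq2 on all libraries), and 2129 to 3289 with 1 library left out, 2129 without gain8 replicate 2 and 2330 without gain8 replicate 3. The difference of the effects, 0 genes, was 42 by DESeq2, 1 with the Lars2 term, 1526 in the high set (1 gain4, 1 gain8 and 1 control8 library against 2 of control16, each lone library assumed to vary like the other groups, so no check of the 0), 19 without the 3 libraries, 1, 1 and 3 by limma (pseudocounts 1 and 0.1, and no filter), and 0 to 4 with 1 library left out. The causes were not tested.

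With the replicate number as a block 808 genes were called (776 of the 1037 among them), 526 higher and 282 lower, and 3669 in gain8 and 0 for the difference. Same-numbered libraries of gain4 and control16 had deviations that correlated at 0.03, 0.17 and 0.18 over genes, and 2 of 3 gain4 libraries correlated best with their own number. These values do not decide whether the numbers pair. No pairing was used because the labels do not say that the number marks a litter, day or batch.

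Of the 95 genes given with values 78 were called. In none of these 78 did the direction reverse under any setting tried, and 76 kept the call with RLE scaling, 69 without the filter, 67 with the block, 42 without gain4 replicate 2 and 0 without control16 replicate 1 or without control16 replicate 2. Reversals were confined to uncalled genes. Adipoq was at -0.19 in the low Lars2 set, -0.0531 in all 3 limma fits, and -0.21 to 0.34 with 1 library left out (-0.21 without gain4 replicate 2). Mest was at -0.047 with the Lars2 term, -0.57 in the high and -0.14 in the low set, and -0.25 to 1.19 with 1 library left out (-0.25 without gain4 replicate 1, -0.0042 without control16 replicate 2). Fasn was at -1.21 in the high set, -0.016 by limma with a pseudocount of 1, with or without the filter, -0.0225 with 0.1, and -0.12 to 0.77 with 1 library left out (-0.12 without gain4 replicate 3). In the low set Sfrp5 was at -0.16, Cd163 at 0.12 and Ucp1 at -0.42, and in the high set Npr3 was at -0.11 and Adrb3 at 0.0546. Depth limits genes well under 1 CPM, such as Ucp1.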
